A study of Mus musculus with 6 samples.

Results

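The genes described here are the primary granule proteases and myeloperoxidase with their close partners, namely *Mpo*, *Elane*, *Prtn3*, *Ctsg*, *Cfd*, *Srgn* and *Serpinb1a*. They were chosen by symbol, and all 7 were found among the 41128 genes listed and passed the expression threshold that left 9522 protein-coding genes to test. The samples were murine acute myeloid leukemias, from which donor-derived (CD45.1+) KIT+Gr1+ cells were flow sorted from bone marrow (BM), with 1 library per mouse. In both cohorts, KIT+ BM stem and progenitor cells from young female CD45.1+ donors received a retrovirus driving *Hoxa9*, a HOX gene commonly overexpressed in acute myeloid leukemia. A second retrovirus was either the empty vector (*Hoxa9*/MTV, 3 mice numbered 1.1, 1.2 and 1.4) or carried human *IRX3*, a homeobox transcription factor gene (*Hoxa9*/*IRX3*, 3 mice numbered 3.2, 3.3 and 3.5), and the drug-selected cells were transplanted into lethally irradiated young female CD45.2+ recipients together with CD45.2+ support marrow. The labels give the strain of all 6 mice as C57BL/6. The comparison asks how adding *IRX3* to *Hoxa9* changed the genes that the leukemia cells expressed.

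Primary (azurophil) granules form at the promyelocyte stage of neutrophil development and hold the enzymes that a neutrophil uses against ingested microbes. Myeloperoxidase, a heme enzyme that makes hypochlorous acid, is packed there with the neutrophil serine proteases neutrophil elastase, proteinase 3 and cathepsin G, which are held on the negatively charged proteoglycan serglycin. Their transcripts are abundant in granulocyte-macrophage progenitors and promyelocytes and fall as cells mature, and serine protease inhibitors of the serpin family restrain enzyme that leaks into the cytosol.

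Because several of these genes are transcribed together in promyelocytes, the DNA upstream of their transcript starts was read from RefSeq (GRCm38.p6), which held 6 of the 7 genes in 7 entries. In the 250 bases upstream of the start, the letters GGAAGT, which hold the core bound by ETS factors such as PU.1, were found on the forward strand in *Mpo*, *Elane*, *Prtn3* and *Ctsg*. The following 30-base windows show these matches in capitals, each on the strand of its gene.
Mpo, chr11:87793550-87793579, plus strand: tggagagagagaGGAAGTtgcctttgtccc
Elane, chr10:79886217-79886246, plus strand: gtgtcccagggaGGAAGTagggctgtggcc
Prtn3, chr10:79879562-79879591, plus strand: aaactggaaggaGGAAGTgggacccacagc
Ctsg, chr14:56102762-56102791, minus strand: agaggaagaaaaGGAAGTagtcacctgttt

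Counted from the RefSeq start, with negative positions upstream, the matches began at -222 in *Mpo*, -83 in *Elane*, -93 in *Prtn3* and -205 in *Ctsg*. GENCODE annotates transcript starts of *Mpo* and *Elane* directly downstream of their windows. *Srgn* held the motif on the reverse strand at -145. On either strand, GGAAGT was present in 19.7% of the 32851 RefSeq promoters searched, so a match is common. AACGG, the letters bound by MYB, was found in *Elane* and *Prtn3* and in 14.5% of all promoters. These windows show it in capitals.
Elane, chr10:79886250-79886279, plus strand: atggggcaatacAACGGcctctggttccag
Prtn3, chr10:79879600-79879629, plus strand: tagccactgttcAACGGctcccggcagagc

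In the neighbouring genes *Elane* and *Prtn3*, AACGG lay at -50 and -55 and TATAA, the TATA box letters, at -31 and -32. Both thus held the ETS core letters, the MYB letters and the TATA box letters in this order on the forward strand, an arrangement present in 7 of the 32851 promoters (0.0213%). TATAA on either strand was present in 22.8% of promoters and also matched in *Srgn* (-98) and *Ctsg* (reverse strand, -236). TTGCNNAA, a C/EBP pattern found in 9.56% of promoters, matched in none of the 6 genes, and TGTGGT, a RUNX pattern found in 14.0%, matched on the reverse strand in *Ctsg* (-79) and *Srgn* (-202). All motifs were searched on both strands. The motifs and their order were chosen after these sequences had been read, so the matches are a description and no test of binding.

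The 7 genes each had a higher mean in *Hoxa9*/*IRX3* than in *Hoxa9*/MTV leukemia cells, and 2 of them, *Elane* and *Srgn*, passed the test. The deposited unit was RPKM (reads per kilobase of gene, scaled to library size). A gene was called when the limma adjusted p was under 0.05 and the change was at least 2-fold on the log2(RPKM + 0.5) scale. Of the 9522 genes tested, 105 were called higher (1.10%) and 193 lower (2.03%) in *Hoxa9*/*IRX3*, and none of the 7 was called lower. In 6 of the 7 genes, all except *Serpinb1a*, every *Hoxa9*/*IRX3* mouse lay above every *Hoxa9*/MTV mouse, as did 12.2% of all tested genes. The median log2 fold change of the 7 was 1.00, against -0.06 over all tested genes, and 6 of the 7 had an unadjusted p under 0.05, as did 2315 of all tested genes.

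**Figure D1:**
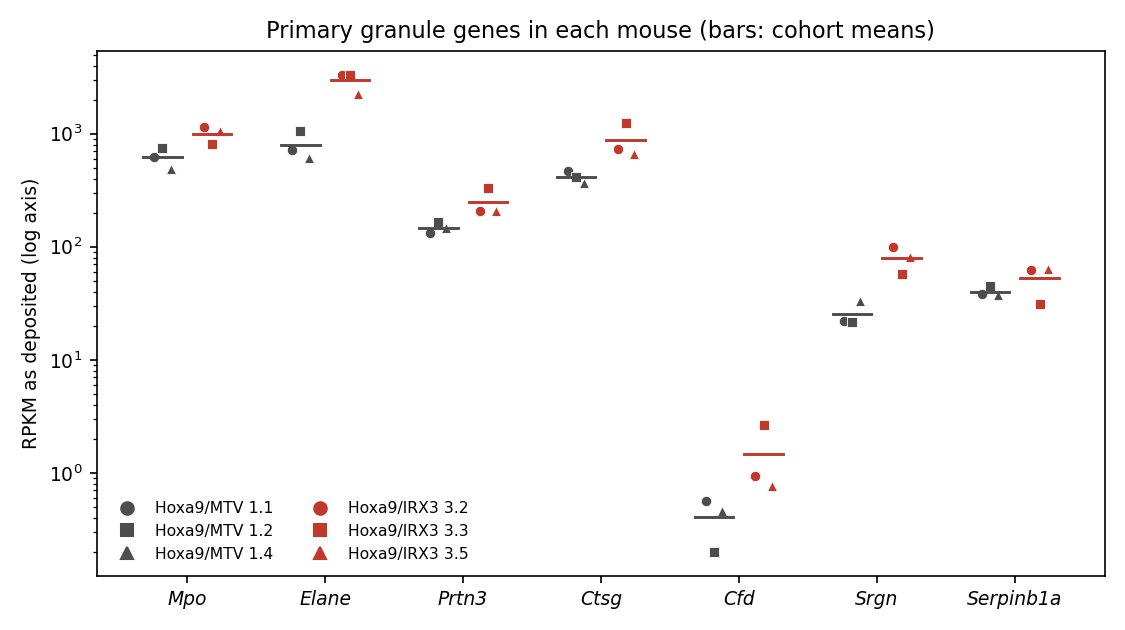
RPKM as deposited on a log axis for each of the 7 genes, with 1 point per mouse (gray, *Hoxa9*/MTV; red, *Hoxa9*/*IRX3*; symbols mark the mouse) and bars at cohort means. The cohorts separate in every gene but *Serpinb1a*, where mouse 3.3 at 31.0 RPKM lies below all 3 *Hoxa9*/MTV mice.

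Before the individual genes, the libraries and the sort were examined. Recovered library sizes were 7979246 to 9803621 reads, and the cohorts overlapped in size. *Ly6c2*, which encodes Ly6C and is recognized together with Ly6G by Gr1 antibodies, was listed at 413 to 844 RPKM, and *Kit* at 1.63 to 3.12 RPKM. The mouse *Irx3* gene had no reads in the *Hoxa9*/MTV cohort, and was listed at 15.1 RPKM in mouse 3.2, 0.421 in 3.3 and 0.148 in 3.5. Reads of the human cDNA were not counted separately. Whether reads listed at mouse *Irx3* came from that cDNA or from the endogenous gene cannot be told, so *Irx3* does not check the labels. *Hoxa9* was high in both cohorts at 154 to 363 RPKM. Mouse 3.3 stood apart from the other *Hoxa9*/*IRX3* mice in several genes of myeloid maturation, such as *Mpeg1*, a macrophage pore-forming protein gene (505 RPKM in 3.3 against 58.2 in 3.2 and 131 in 3.5), and *Csf1r*, the macrophage growth factor receptor (6.43 against 0.790 and 0.552). These genes were named after their values were seen. Values without mouse 3.3 are therefore given below where it set a result. Because mouse 3.3 was set apart by values of these same data, calls made without it are descriptions and no test.

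*Elane* (ENSMUSG00000020125, chr10:79886247-79888215, plus strand) encodes neutrophil elastase. It was listed at 715, 1053 and 614 RPKM in *Hoxa9*/MTV mice 1.1, 1.2 and 1.4, and at 3324, 3332 and 2237 RPKM in *Hoxa9*/*IRX3* mice 3.2, 3.3 and 3.5. The lowest *Hoxa9*/*IRX3* mouse thus exceeded the highest *Hoxa9*/MTV mouse by a wide margin. The means were 794 ± 230.0 and 2964 ± 629.9 RPKM (SD, n = 3 each), a ratio of 3.73. The log2 fold change was 1.91 (SE 0.26, limma adjusted p = 0.0144), and *Elane* ranked 125 by p among the genes tested. The call held in 4 of 6 fits that left out a mouse. It was lost without mouse 1.1 (1.86, adjusted p = 0.0739) and without mouse 1.4 (1.75, adjusted p = 0.0812), although the change itself stayed above 3-fold on this scale. Reads behind these values numbered 11318 to 62223 per library, so counting error was small beside the difference between mice.

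*Prtn3* (ENSMUSG00000057729, chr10:79874476-79883174, plus strand) encodes proteinase 3, the target of the autoantibodies of granulomatosis with polyangiitis. Its values were 131, 166 and 147 RPKM in *Hoxa9*/MTV mice and 206, 332 and 205 RPKM in *Hoxa9*/*IRX3* mice. The groups did not overlap, but mouse 3.3 was well above the other *Hoxa9*/*IRX3* mice. The log2 fold change was 0.71 (SE 0.23, limma adjusted p = 0.123), from means of 148 ± 17.5 and 248 ± 73.1 RPKM, so *Prtn3* did not pass the test. Its span overlaps *BC005764* on the opposite strand, whose mean was 17.7 RPKM in *Hoxa9*/*IRX3* against 22.3 RPKM in *Hoxa9*/MTV. The libraries were strand specific, but whether counting used the strand is not given in the sources used here, and if it did not, reads of the shared stretch cannot be told apart.

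*Ctsg* (ENSMUSG00000040314, chr14:56099881-56102574, minus strand) encodes cathepsin G, a serine protease with chymotrypsin-like activity. It stood at 464, 418 and 368 RPKM in *Hoxa9*/MTV mice, compared with 733, 1253 and 659 RPKM in *Hoxa9*/*IRX3* mice. Mouse 3.3 again had the highest value, and the lowest *Hoxa9*/*IRX3* mouse was still above all *Hoxa9*/MTV mice. The means were 417 ± 48.4 and 881 ± 324 RPKM, and the log2 fold change was 1.03 (SE 0.26, limma adjusted p = 0.0741). The change was past 2-fold, yet the adjusted p missed the threshold. Without mouse 3.3 it was 0.74 (adjusted p = 0.0614).

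*Mpo* (ENSMUSG00000009350, chr11:87793581-87804413, plus strand) encodes myeloperoxidase and took the most reads of the 7 genes in every library, 50548 to 108924. Values in *Hoxa9*/MTV mice were 625, 752 and 482 RPKM, and in *Hoxa9*/*IRX3* mice 1135, 807 and 1059.7 RPKM. Mouse 3.3 had the lowest *Hoxa9*/*IRX3* value, close to mouse 1.2, and the cohorts did not overlap. The log2 fold change was 0.70 (SE 0.22, limma adjusted p = 0.115) from means of 619.6 ± 135 and 1000.4 ± 172 RPKM. Quantile normalization, which forces the same distribution on every library, brought it to 0.13 (adjusted p = 0.658). *Elane* and *Ctsg* moved to 1.31 and 0.78 under that scaling, *Elane* kept its call (adjusted p = 0.0144), and *Prtn3* stood at 0.73 (adjusted p = 0.0557).

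*Srgn* (ENSMUSG00000020077, chr10:62493833-62527451, minus strand) encodes serglycin, the proteoglycan core protein on which the cationic granule enzymes are stored. It was listed at 21.8, 21.4 and 33.3 RPKM in *Hoxa9*/MTV mice, compared with 98.8, 57.7 and 81.2 RPKM in *Hoxa9*/*IRX3* mice. All 3 *Hoxa9*/*IRX3* mice were well above the *Hoxa9*/MTV range. The means were 25.5 ± 6.72 and 79.2 ± 20.6 RPKM, a ratio of 3.10, and the log2 fold change was 1.61 (SE 0.26, limma adjusted p = 0.0257). This call was less secure than that of *Elane* with respect to single mice, and it held in 2 of 6 fits that left out a mouse. It was lost without mouse 1.1 (1.52, adjusted p = 0.110), without 1.2 (1.50, 0.122), without 1.4 (1.81, 0.0637) and without 3.5 (1.58, 0.0594). The log2 fold change ranged from 1.44 to 1.82 over these 6 fits.

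*Serpinb1a* (ENSMUSG00000044734, chr13:32842092-32851185, minus strand) encodes a cytosolic serpin that inhibits elastase, proteinase 3 and cathepsin G. Values were 37.9, 44.9 and 37.3 RPKM in *Hoxa9*/MTV mice and 62.9, 31.0 and 63.3 RPKM in *Hoxa9*/*IRX3* mice. The cohorts overlapped because of mouse 3.3, which had the lowest value of all 6 mice while its *Ctsg* and *Prtn3* were the highest. The log2 fold change was 0.32 (SE 0.30, limma adjusted p = 0.540), and without mouse 3.3 it was 0.66 (adjusted p = 0.0635). No difference in the inhibitor was therefore detectable with these 6 mice.

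*Cfd* (ENSMUSG00000061780, chr10:79890853-79892655, plus strand) encodes complement factor D, a serine protease of the alternative complement pathway and the third gene of the *Prtn3*, *Elane* and *Cfd* cluster. In contrast to the others it was barely expressed, at 0.564, 0.200 and 0.458 RPKM in *Hoxa9*/MTV mice and 0.938, 2.66 and 0.764 RPKM in *Hoxa9*/*IRX3* mice. These values rest on 9, 3 and 8 reads and on 15, 47 and 11 reads, and the cohorts did not overlap. The log2 fold change was 1.00 (SE 0.37, limma adjusted p = 0.160), and without mouse 3.3 it was 0.59. With so few reads it depended on the pseudocount, being 1.49 with a pseudocount of 0.1 and 0.73 with 1.

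**Figure D2:**
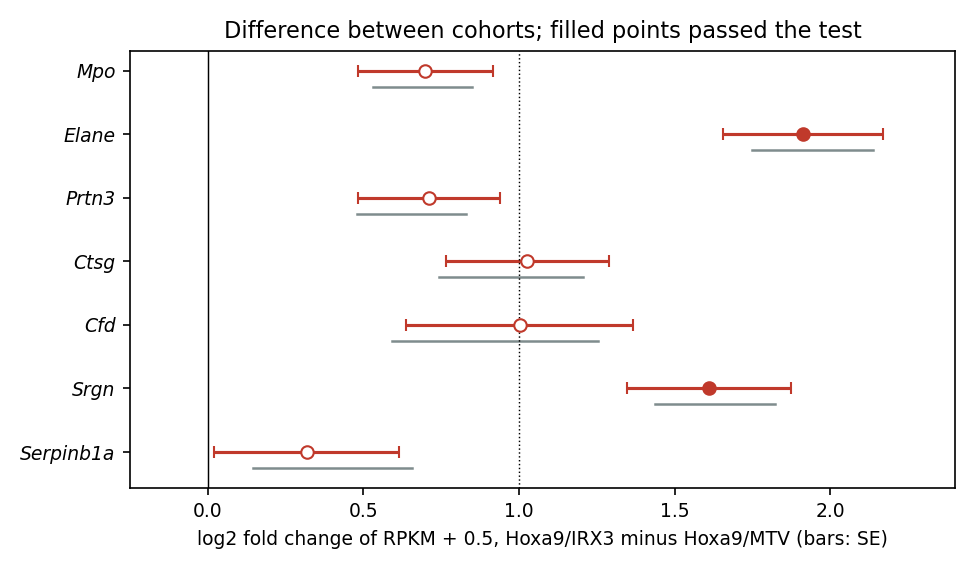
Log2 fold change of RPKM + 0.5 (*Hoxa9*/*IRX3* minus *Hoxa9*/MTV) for the 7 genes, with points and SE bars from limma and a gray line below each for the range when each mouse was left out in turn. Filled points passed the test (*Elane*, 1.91, and *Srgn*, 1.61), the dotted line marks a 2-fold change, and all 7 points and ranges lie above 0.

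Without mouse 3.3, *Elane* (1.82, limma adjusted p = 0.0342) and *Srgn* (1.82, 0.0206) were again the genes called, and *Mpo* (0.85, 0.0858) and *Prtn3* (0.48, 0.133) again did not pass.

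The 7 genes together took 1.16%, 1.38% and 1.01% of reads in the *Hoxa9*/MTV libraries and 2.63%, 2.36% and 2.26% in the *Hoxa9*/*IRX3* libraries. The lowest *Hoxa9*/*IRX3* library therefore devoted a larger share to these transcripts than the highest *Hoxa9*/MTV library. The serine proteases *Elane*, *Prtn3* and *Ctsg* took 0.344% to 0.458% in *Hoxa9*/MTV and 0.782% to 1.26% in *Hoxa9*/*IRX3*. These are bulk samples, in which a larger share of cells at the promyelocyte stage and more transcript per cell cannot be told apart.

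The order of the genes within a mouse differed between cohorts. The deposited RPKM divide by the whole gene with its introns, which puts *Elane* first in all 6 mice, so levels of different genes were compared per kilobase of exon. On that scale *Mpo* was the most abundant of the 7 in all 3 *Hoxa9*/MTV mice, at 1977, 2378 and 1526 RPKM recomputed with exon length, with *Elane* next at 1432, 2108 and 1229, and then *Ctsg*, *Prtn3*, *Srgn*, *Serpinb1a* and *Cfd*. In all 3 *Hoxa9*/*IRX3* mice *Elane* came first, at 6652, 6667 and 4476, against 3590.2, 2552 and 3353 for *Mpo*. The *Mpo* to *Elane* ratio per exon length was 1.38, 1.13 and 1.24 in *Hoxa9*/MTV and 0.540, 0.383 and 0.749 in *Hoxa9*/*IRX3*, on opposite sides of equality with these lengths. Each length joins all annotated exons of a gene, 3424 bases for *Mpo* and 984 for *Elane*. A shorter *Mpo* transcript would raise the ratio in every mouse. This was not examined, so which gene came first depends on the lengths used.

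The next places varied more. *Ctsg* (3268) exceeded *Mpo* in mouse 3.3 but not in mice 3.2 and 3.5, where it stood at 1910.4 and 1718. *Srgn* lay below *Prtn3* in all 3 *Hoxa9*/MTV mice and in mouse 3.3, and above it in mice 3.2 and 3.5 (1513 against 1036, and 1243 against 1029.9). Neighbours in the order were not always apart beyond their spread, since *Mpo* and *Elane* in *Hoxa9*/MTV had means of 1960.2 ± 426 and 1589.6 ± 460.3. *Cfd* was last in every mouse, at 0.392 to 5.20. The authors' annotation spans 1905 bases for *Elane* where the annotation used here spans 1969. With its exon length shortened by those 64 bases, *Elane* in *Hoxa9*/MTV mice came to 1482, 2181 and 1272, still under *Mpo* in each.

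**Figure D3:**
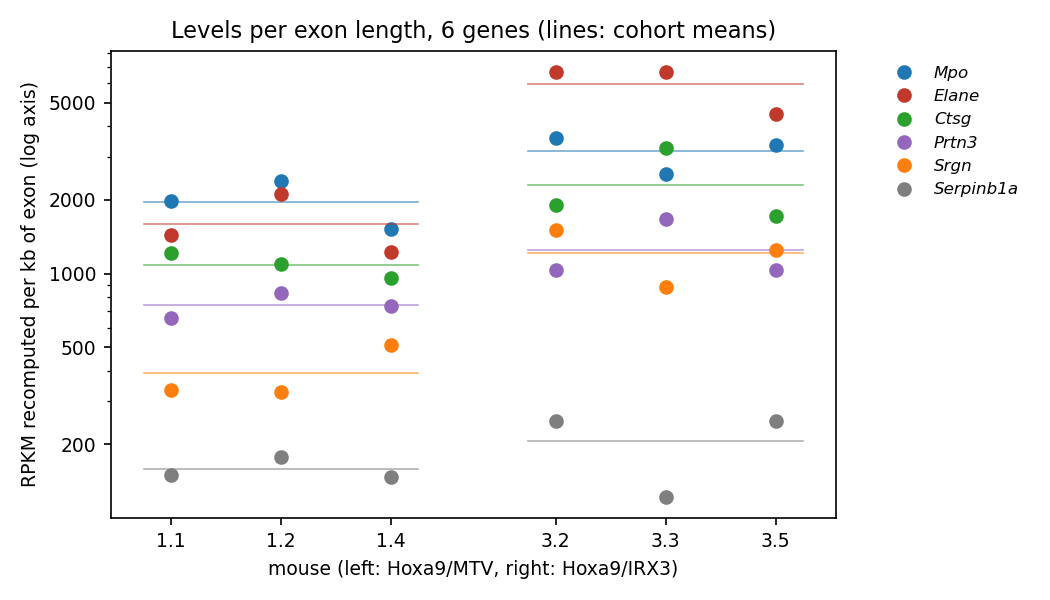
RPKM recomputed per kilobase of exon (log axis) in each mouse for 6 genes, *Hoxa9*/MTV mice on the left and *Hoxa9*/*IRX3* mice on the right, with lines at cohort means. *Mpo* (blue) is on top in mice 1.1, 1.2 and 1.4, *Elane* (red) in mice 3.2, 3.3 and 3.5, and *Cfd*, at 0.392 to 5.20, is off the scale and not drawn.

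Ratios of 2 genes within a mouse do not depend on library scaling. The percentages below use the deposited RPKM, which divide by the whole gene with introns, so they are no relative transcript levels. Per kilobase of exon, *Mpo* exceeded *Elane* in every *Hoxa9*/MTV mouse, as given above. For ratios of 2 genes, the log2 differences between cohorts are the same on either length. The difference for *Serpinb1a* relative to the 3 proteases summed was -1.14 per kilobase of exon. With 3 mice per cohort, none of the 6 ratios examined could pass an exact test. *Prtn3* stood at 18.3%, 15.8% and 23.9% of *Elane* in *Hoxa9*/MTV mice, compared with 6.21%, 9.98% and 9.17% in *Hoxa9*/*IRX3* mice, so every *Hoxa9*/*IRX3* mouse had less *Prtn3* per *Elane*. The difference in log2 ratio was -1.20 (exact two-sided permutation p = 0.1, the smallest that 3 against 3 mice allow, and 0.15 adjusted over the 6 ratios examined). *Mpo* was 87.3%, 71.3% and 78.5% of *Elane* in *Hoxa9*/MTV and 34.1%, 24.2% and 47.4% in *Hoxa9*/*IRX3*, a difference of -1.21, and *Ctsg* was 64.9%, 39.7% and 59.8% against 22.0%, 37.6% and 29.5%, a difference of -0.89. For both, the cohorts did not overlap and the exact permutation p was again 0.1 (0.15 adjusted). The gap for *Ctsg* was narrow, since mouse 3.3 at 37.6% lay close to mouse 1.2 at 39.7%.

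By contrast, *Srgn* relative to *Elane* was 3.05%, 2.04% and 5.42% in *Hoxa9*/MTV and 2.97%, 1.73% and 3.63% in *Hoxa9*/*IRX3*, with overlapping cohorts and a log2 difference of -0.28 (exact permutation p = 0.6, adjusted 0.72). *Cfd* relative to *Elane* also overlapped, at 0.0190% to 0.0789% and 0.0282% to 0.0798% (difference -0.18, exact permutation p = 1.0), on its few reads. These differences changed sign when single mice were left out, so neither equality nor a small difference can be told from them. The inhibitor *Serpinb1a* relative to the sum of *Elane*, *Prtn3* and *Ctsg* was 2.89%, 2.74% and 3.31% in *Hoxa9*/MTV and 1.48%, 0.631% and 2.04% in *Hoxa9*/*IRX3*. Every *Hoxa9*/*IRX3* mouse had less inhibitor transcript per protease transcript, by -1.26 on the log2 scale (exact permutation p = 0.1, adjusted 0.15), and by -0.78 without mouse 3.3.

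**Figure D4:**
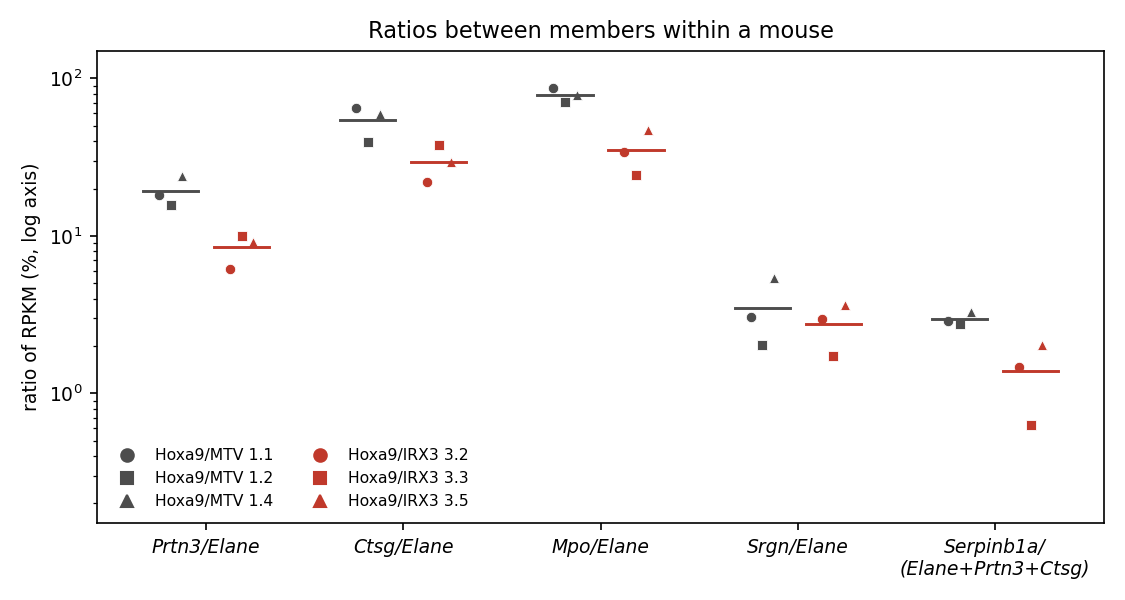
Ratio of RPKM as deposited, per whole gene with introns, between genes within each mouse (percent, log axis), with 1 point per mouse and bars at cohort means. *Prtn3*, *Ctsg* and *Mpo* relative to *Elane*, and *Serpinb1a* relative to the 3 proteases summed, are lower in every *Hoxa9*/*IRX3* mouse (red), while *Srgn* relative to *Elane* overlaps.

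Across the 6 mice, the log2 values of *Ctsg* and *Prtn3* had a Pearson correlation of 0.94, *Ctsg* and *Cfd* 0.94, and *Elane* and *Mpo* 0.86. *Mpo* and *Prtn3* were less alike (0.53), and *Serpinb1a* ran nearly unrelated to *Prtn3* (-0.09) and *Ctsg* (-0.06). The values describe 6 libraries that fall into 2 cohorts. Mouse 3.3 was highest of all mice for *Ctsg*, *Prtn3* and *Cfd* and, within its cohort, lowest for *Mpo*, *Srgn* and *Serpinb1a*.

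Pattern likeness was measured against the 2538 tested genes whose mean reached 5 RPKM. The 3 most like *Elane* over the 6 mice were *Gm6665* (r = 0.996), *Snx3* (0.977) and *Uba1* (0.974). *Gm6665* was itself called higher (log2 fold change 3.57, limma adjusted p = 0.0067). For *Srgn* they were *Cdk8* (0.992, called higher, 1.60, adjusted p = 0.0138), *Prps1l3* (0.986) and *Xbp1* (0.984), and for *Mpo* *Dynlt3* (0.970), *Plod3* (0.967) and *Fkbp4* (0.963). For *Prtn3* they were *Apba3*, *Coa3* and *Ramp2* (0.982 to 0.992), for *Ctsg* *Rexo2*, *Copa* and *Ilf2* (0.988 to 0.991), for *Cfd* *Ahsa1*, *Cd97* and *Baz1b* (0.974 to 0.989), and for *Serpinb1a* *Tmem248*, *Ghitm* and *2610018G03Rik* (0.968 to 0.987). With 6 points in 2 cohorts, such values describe these libraries only.

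*Prtn3*, *Elane* and *Cfd* lie side by side on the plus strand of chromosome 10, with gaps of 3073 bases between *Prtn3* and *Elane* and 2638 bases between *Elane* and *Cfd*. All 3 were higher in every *Hoxa9*/*IRX3* mouse, but their immediate neighbours were not. *BC005764*, which overlaps the start of *Prtn3* on the opposite strand, differed by -0.36 on the log2 scale (limma adjusted p = 0.352). *Ptbp1*, a splicing regulator further upstream, had -0.09 (SE 0.14, limma adjusted p = 0.716). *Med16*, a Mediator subunit downstream of *Cfd*, had -0.55 (limma adjusted p = 0.0376, under 2-fold). Of 11 tested neighbours within 100 kb of *Elane*, 2 of them the other cluster genes, none was called. *Prss57*, which encodes neutrophil serine protease 4 and lies 95286 bases upstream of *Elane*, was listed at 9.15, 11.3 and 10.5 RPKM in *Hoxa9*/MTV and at 18.7, 2.88 and 25.7 RPKM in *Hoxa9*/*IRX3*. Mouse 3.3 was below, and mice 3.2 and 3.5 above, all *Hoxa9*/MTV mice, and *Prss57* was not called (0.15, adjusted p = 0.920). Without mouse 3.3 it was called higher (1.06, limma adjusted p = 0.0386).

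**Figure D5:**
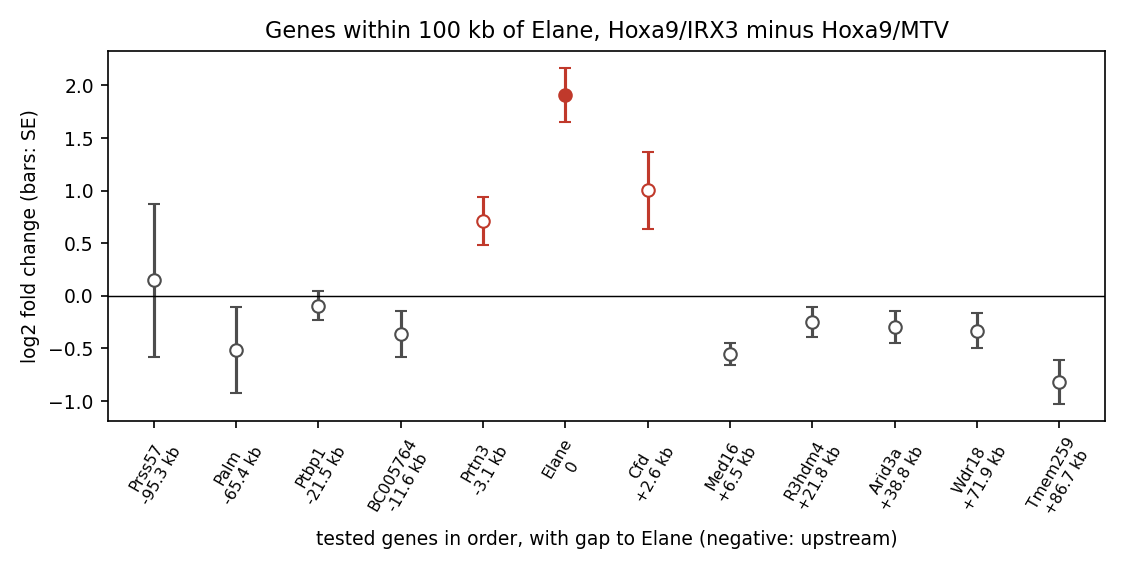
Log2 fold change with SE (*Hoxa9*/*IRX3* minus *Hoxa9*/MTV) of *Elane* and the 11 tested protein-coding genes within 100 kb, in order along the chromosome, with the gap to *Elane* in kb. *Prtn3*, *Elane* and *Cfd* (red) have the 3 highest values, *Elane* (filled) is the gene called, and flanking genes lie near or below 0, *Tmem259* lowest at -0.82.

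At the other loci no neighbour within 100 kb was called. *Mpo* lies 2015 bases from *Lpo*, encoding lactoperoxidase, which had no reads in 5 of 6 libraries and 3 in the other. *Epx*, the eosinophil peroxidase gene, was listed at 0 throughout. *Bzrap1*, the upstream neighbour of *Mpo*, averaged 12.5 RPKM in *Hoxa9*/*IRX3* against 7.05 RPKM in *Hoxa9*/MTV (0.82, limma adjusted p = 0.175). *Ctsg* lies in the cluster of granzyme and mast cell protease genes, where *Mcpt8*, a basophil protease gene 14608 bases downstream, was the only 1 of 9 neighbours to be tested. It ran opposite to *Ctsg*, at 8.75, 13.7 and 12.4 RPKM in *Hoxa9*/MTV mice but 3.18, 6.69 and 4.68 RPKM in *Hoxa9*/*IRX3* mice (-1.21, adjusted p = 0.0621), and did not pass the test. Without mouse 3.3 it was called lower (-1.45, limma adjusted p = 0.0369). *Srgn* had *Vps26a* (0.13, adjusted p = 0.725) and *2510003E04Rik* (-0.04, adjusted p = 0.851) at its sides, and *Serpinb1a* had *Wrnip1* (0.39, adjusted p = 0.165).

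Other components of the primary granule were read in the same fit. Of 18 azurophil granule partners, 16 were tested, 0 were called higher and 1 lower, with a median log2 fold change of -0.23. Without mouse 3.3 the counts were 1 higher, *Prss57*, and 0 lower. *Man2b1*, lysosomal alpha-mannosidase, fell from 22.7 ± 2.71 to 10.8 ± 1.76 RPKM (-1.04, limma adjusted p = 0.0271). The most abundant, *Lyz2*, encoding lysozyme, stood at 126 ± 30.8 RPKM in *Hoxa9*/*IRX3* against 222 ± 42.5 RPKM in *Hoxa9*/MTV (-0.83, adjusted p = 0.104), with every *Hoxa9*/*IRX3* mouse below every *Hoxa9*/MTV mouse. *Ctsz* (-0.60, adjusted p = 0.384) and *Ctsd* (0.12, 0.696), both lysosomal cathepsins, overlapped between cohorts. *Ctsb*, also a lysosomal cathepsin, was lower in every *Hoxa9*/*IRX3* mouse (-0.64, limma adjusted p = 0.0383), but under 2-fold and so not called. *Cd63* was higher in every *Hoxa9*/*IRX3* mouse (0.68, limma adjusted p = 0.166) and not called. *Ctsb* and *Cd63* were named after their values were seen. *Ctsc*, whose product dipeptidyl peptidase 1 activates the granule serine proteases and which was named after its values were seen, was listed at 2.97, 2.66 and 3.14 RPKM in *Hoxa9*/MTV and at 0.114, 4.48 and 2.03 RPKM in *Hoxa9*/*IRX3* (-0.79, adjusted p = 0.519), with mouse 3.2 near 0.

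Genes for the maturation of myeloperoxidase, meaning chaperones of its folding and enzymes of heme synthesis, included 12 genes, of which 11 were tested, 0 were called higher and 1 lower (median 0.11). *Ppox*, protoporphyrinogen oxidase, fell from 8.27 ± 0.337 to 3.67 ± 1.10 RPKM (-1.11, limma adjusted p = 0.0378). *Cpox*, coproporphyrinogen oxidase, averaged 5.64 RPKM in *Hoxa9*/*IRX3* against 2.72 in *Hoxa9*/MTV (0.92, limma adjusted p = 0.0279). It was under 2-fold on this scale and so was not called, although it was called higher with a pseudocount of 0.1, quantile normalization, voom on recovered reads or exon length. *Cpox* was named after its values were seen. Of 14 genes for granule traffic and exocytosis, 13 were listed and 11 tested (median 0.03), and of 12 genes that build the glycosaminoglycan chains of serglycin, 10 were tested (median 0.18). None in either list was called. No gene was called among 7 tested of 20 further protease inhibitors (median 0.38), whose most abundant genes were the cystatins *Cst3* (-0.42, adjusted p = 0.489), *Cst7* (0.64, 0.107) and *Cstb* (0.23, 0.356). *Cst7*, cystatin F, which inhibits cathepsin C, was higher in every *Hoxa9*/*IRX3* mouse, at 28.8 ± 1.95 against 18.6 ± 4.57 RPKM. None was called among 2 tested of 13 granzymes and mast cell proteases (median -0.60) or among 3 tested of 7 other peroxidases and eosinophil granule proteins (0.38).

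Among 10 transcription factors that act on primary granule genes, 1 was called higher and 0 lower (median 0.18). *Gfi1*, a zinc finger repressor needed for neutrophil development and known to act on *Elane*, was listed at 28.4, 25.3 and 27.8 RPKM in *Hoxa9*/MTV mice, compared with 92.7, 94.4 and 82.4 RPKM in *Hoxa9*/*IRX3* mice. The replicates were tight and far apart, the log2 fold change was 1.71 (SE 0.13, limma adjusted p = 0.0030), and no call was lost when each of the 6 mice was left out in turn. The authors also reported qPCR of *Gfi1* in sorted KIT+Gr1+ leukemia cells from more mice per cohort. There the increase in *Hoxa9*/*IRX3* was variable and not statistically significant. *Spi1*, *Myb*, *Cebpa* and *Runx1*, encoding PU.1, MYB, C/EBPα and RUNX1, were not called, with log2 fold changes of -0.58, -0.10, 0.16 and 0.54 (limma adjusted p of 0.344, 0.749, 0.727 and 0.213). *Cebpe*, which drives the later switch to secondary granules, was listed at 59.5, 17.4 and 109 RPKM in mice 3.2, 3.3 and 3.5 against 28.4 to 32.5 RPKM in *Hoxa9*/MTV, and mouse 3.3 again lay on the other side of the *Hoxa9*/MTV mice. It was not called (0.70, limma adjusted p = 0.514), but without mouse 3.3 it was called higher (1.43, adjusted p = 0.0472). These 5 genes were chosen after their values were seen.

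Secondary and tertiary granule genes, which follow primary granule genes in maturation, did not share a direction. Of 12, all tested, 1 was called higher and 0 lower (median -0.03). *Cd177*, encoding a neutrophil surface protein that presents proteinase 3, rose from 14.9 ± 1.51 to 40.9 ± 7.52 RPKM (1.42, limma adjusted p = 0.0107). Markers of other cells were read in the same way. Of 8 tested mature neutrophil markers 2 were called higher, *Ly6g* (0.11 ± 0.048 to 1.08 ± 0.373 RPKM) and *Retnlg* (1.16 ± 0.132 to 5.48 ± 2.83 RPKM). *Ly6g* rested on 2 to 5 reads in *Hoxa9*/MTV and 26 to 49 in *Hoxa9*/*IRX3*. *Mmp8* ran the other way (-0.75, limma adjusted p = 0.320) and was not called. Summed levels of the list overlapped, at 430.0 to 602 RPKM in *Hoxa9*/MTV mice and 507 to 1702 RPKM in *Hoxa9*/*IRX3* mice. The highest sum was that of mouse 3.5, where *S100a8* stood at 1367 RPKM (0.82, limma adjusted p = 0.311). Of 6 tested monocyte and macrophage markers 1, *Ccr2*, was called lower (22.4 ± 3.81 to 5.05 ± 1.39 RPKM), with summed levels of 909.7 to 986 and 535 to 1319 RPKM. Without mouse 3.3, *Csf1r* (-2.36, limma adjusted p = 0.0051), *Mpeg1* (-2.33, 0.0277) and *F13a1* (-1.29, 0.0252) were called lower. With all mice they were not called (-1.50, -1.48 and -0.875). *Csf1r* and *Mpeg1* were among the genes that set mouse 3.3 apart, so their calls without it are no test. *Cd14* ran the other way without mouse 3.3 (0.98) and *Ly6c2* with all mice (0.56), and neither was called with all mice. The uncalled genes here were named after their values were seen. The part of such differences in maturation in the granule gene results was not tested.

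Of 4 tested mast cell and basophil markers 2 were called lower, *Gata2* (4.37 ± 1.44 to 0.329 ± 0.395 RPKM) and *Cpa3*, whose product is a protease of mast cell granules that also bind serglycin (1.02 ± 0.520 to 0.0535 ± 0.0597 RPKM). Summed levels of these 8 markers were 14.5 to 20.3 RPKM in *Hoxa9*/MTV mice but 4.51 to 7.31 RPKM in *Hoxa9*/*IRX3* mice, and *Fcer1a*, *Cma1* and *Tpsb2* were listed at 0 in every mouse. The other tested markers were *Mcpt8*, given above, and *Ms4a2*, a chain of the IgE receptor, which ran the other way, at 0.877 RPKM on average in *Hoxa9*/*IRX3* against 0.370 in *Hoxa9*/MTV (0.66, limma adjusted p = 0.103), with no overlap between cohorts. The part of these cells in the *Srgn* result was not tested. *Cd79b* was called lower among 2 tested B cell markers, and the other, *Vpreb1*, averaged 1.11 RPKM in *Hoxa9*/*IRX3* against 0.104 in *Hoxa9*/MTV and was not called (1.08, limma adjusted p = 0.272). *Ms4a1* and *Pax5* were listed at 0. Of the other lists, *Nkg7*, a cytotoxic granule gene of T and NK cells, ranged from 14.9 to 482 RPKM over the 6 mice (1.62, adjusted p = 0.415). *Siglecf* of eosinophils stood at 0.212 RPKM in mouse 3.3 and at 9.86 to 12.9 RPKM in the other 5 mice (-1.41, adjusted p = 0.447). *Ms4a2*, *Vpreb1*, *Nkg7* and *Siglecf* were named after their values were seen. Several other defining markers were at or near 0, among them *Epx* and *Ccr3* of eosinophils, *Cd3e*, at most 0.0104 RPKM, and *Trac* of T cells, and *Ppbp* and *Gp1ba* of megakaryocytes.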

How the data were processed

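Bone marrow leukemia cells were sorted and sequenced as strand-specific polyA libraries, 1 per mouse. Per the labels and methods, the authors aligned reads with Bowtie2 2.2.1 to GRCm38, filtered them with SAMtools 0.1.19 and deposited RPKM per Ensembl gene. Most RPKM values were whole multiples of 1 read divided by the gene span with introns, which gave library sizes and read numbers (65% of tested genes within 0.01 of whole reads in all libraries). Whole reads were not recovered for every gene, so no count test was the main result. Protein-coding genes above 0.5 RPKM in at least 1 mouse were tested on log2(RPKM + 0.5) with limma 3.58.1 (R 4.3.3), Benjamini-Hochberg adjusted over 9522 genes, and the fit was tested on simulated data. A pseudocount understates changes of low genes. Ratios used exact permutation tests (SciPy 1.17.1). Gene spans, exon lengths and types came from GENCODE for GRCm38 (874 genes unmatched). The 7 genes and all lists were chosen with earlier results of these data known. Besides the 7 genes, called list genes were named, with at most 5 per list and a mean of at least 1 RPKM except in marker lists, the 3 most abundant azurophil partners and inhibitors, adjacent or called neighbours, and the 3 genes most alike in pattern. Each mouse is 1 sample, and limma p-values rest on the spread between mice, with each gene's variance drawn toward that of genes of similar level. Whether mice of a cohort shared a pool of transduced cells is not given in the sources used here. The spread between transductions was therefore not measured apart. Alternatives covered pseudocount, filter, scaling, weighting, voom on recovered reads, exon length, gene types and leaving out each mouse.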

Additional observations from a re-analysis of the deposited data

How the results depend on the processing

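No paired analysis was possible because mouse numbers differ between cohorts. All 7 fold changes kept their sign under every alternative that gave a value. *Cfd* had none at a threshold of 1 RPKM in at least 3 mice. With no filter on low values, *Elane* (1.91, limma adjusted p = 0.107) and *Srgn* (1.61, adjusted p = 0.0510) were no longer called, which left 0 of the 7 genes called, beside 66 higher and 109 lower among all genes. The cause was not tested. With a pseudocount of 1, 66 genes were called higher, and per kilobase of exon 239 higher and 313 lower. Leaving out each mouse gave 1.75 to 2.14 for *Elane*, 1.44 to 1.82 for *Srgn*, 0 to 2 of the 7 genes called higher, and 24 to 152 genes higher and 37 to 257 lower in all, the lowest counts without mouse 1.4. The log2 ratio difference ranged from -0.85 to 0.18 for *Cfd* to *Elane* and from -0.62 to 0.09 for *Srgn* to *Elane*, both changing sign. Ratios of *Prtn3*, *Ctsg*, *Mpo* and *Serpinb1a* kept theirs. Among the other gene lists, the lower calls of *Man2b1* and *Ppox* were each kept in 2 of 6 fits without a mouse, of *Gata2* in 3, of *Ccr2* in 4, and of *Cpa3* and *Cd79b* in 1. The higher calls of *Cd177*, *Ly6g* and *Retnlg* were each kept in 3. With 3 mice per cohort, an exact test of a ratio cannot go below 0.1, and *Cfd*, with 3 to 47 reads, is limited by depth.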
